A study of Mus musculus with 24 samples.

Results

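The comparison described here set DA-treated M1 WT BMDMs against DA-treated M2 WT BMDMs, by RNA sequencing of cultured bone marrow-derived macrophages (BMDMs) of C57BL/6 mice aged 10 weeks. Its members were the 3 libraries labelled wild type, M1 macrophages and DA and the 3 labelled wild type, M2 and DA, 6 of the 24 libraries of the series. DA is dopamine. M1 cells were stimulated with LPS at 100 ng/ml and IFN-γ at 50 ng/ml, and M2 cells with IL-4 and IL-13 at 10 ng/ml each, for 12 h in both cases, with DA or without it. The untreated M1 and M2 WT libraries (3 each) gave the same contrast in the absence of DA. The remaining 12 libraries came from DRD5-/- BMDMs, which lack the dopamine receptor D5, under the same 4 conditions. The labels name bone as the tissue, whereas the growth note names colons, and nothing in them tells if replicates were separate animals, so p-values measure only the spread between these samples, which may be technical.

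LPS acts through TLR4 and NF-κB and IFN-γ through JAK kinases, and together they drive macrophages towards the M1 state, with nitric oxide synthase, IL-12, IL-6 and interferon-induced GTPases. IL-4 and IL-13 act through STAT6 and drive the M2 state, known for arginase 1, mannose receptor and chitinase-like proteins. D5 is a Gs-coupled receptor that raises cAMP. Arginase 1 and nitric oxide synthase compete for arginine, which is why Arg1 and Nos2 are commonly read as the opposite poles of the M1-M2 axis, and heme oxygenase 1 (Hmox1) degrades heme and is induced by oxidative stress and by heme itself.

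The values are FPKM, a level of mapped fragments corrected for transcript length and library size. They hold no read counts, so the depth of a library is unknown. The 12 WT libraries each had 9774 to 10444 genes at 1 FPKM or more, and libraries of 1 group correlated with r from 0.997 to 0.998 across genes. For M1 libraries 18063 genes are listed and for M2 libraries 17786 genes, of which 17109 are shared. M1 and M2 libraries were thus tabulated in separate sets, and an effect of the stimulus cannot be told apart from an effect of the set in a plain M1-M2 difference. The effect of DA within a stimulus, and the change of the M1-M2 difference with DA, each compare libraries within a set. All 7 macrophage markers checked were present, with a summed level of 7923 to 7993 FPKM in the DA-treated M1 libraries and 8292 to 8329 FPKM in the DA-treated M2 libraries. The untreated means were 7296 FPKM in M1 and 10640 in M2, so the sum rose with DA in M1 and fell in M2. Lyz2 made up most of it (means of 5350 FPKM in DA-treated M1 and 4753 in DA-treated M2). With DA, Fcgr1 (432 against 30.6 FPKM), Mertk (43.2 against 4.78), Itgam and Adgre1 were also higher in M1. Cd68 and Csf1r were higher in M2. Of the M2 markers, Ccl17 was near 0 in M2 cells (mean 0.35 FPKM untreated, 0.09 with DA), Irf4 was low (3.99 and 2.60) and Retnla fell from a mean of 104 to 29.3 FPKM with DA. All 4 fibroblast markers (Col1a1, Col1a2, Col3a1 and Pdgfra) were detected in M2 and summed to 57.9 to 60.9 FPKM in the DA-treated M2 libraries and to 3.26 to 3.68 FPKM in the DA-treated M1 libraries, and the untreated M2 libraries had a mean of 50.8. The collagen genes rose with DA in M2, whereas Pdgfra fell from a mean of 3.39 to 1.47 FPKM. Transcripts of cardiac muscle (Myl2, Mb, Actc1 and Tnnt2, those 4 of 8 listed for both stimuli, in a list added after the values were seen) summed to 6.89 to 14.1 FPKM in the DA-treated and 7.75 to 12.9 FPKM in the untreated M1 WT libraries, against 0.09 FPKM or less in the DA-treated M2 and all DRD5-/- libraries and 0.14 or less in the untreated M2 libraries. Neutrophil markers (4 of 5 listed for both stimuli) followed the same libraries, at 8.68 to 16.7 FPKM in the DA-treated M1 and 0.26 or less in the DA-treated M2 libraries, from Ngp and Camp, while Elane was at 0 and Mpo at a mean of 0.02 FPKM or less in these libraries, and endothelial markers summed to 2.13 to 2.53 and 6.76 to 7.81 FPKM. T cell, B cell, NK, dendritic, mast cell, erythroid and epithelial markers summed to 2.18 FPKM or less in each of the 6 DA-treated libraries. Only markers listed for both stimuli were summed, which were 2 of 4 for T cells, 2 of 3 for B cells and 1 of 4 for mast cells or basophils. The part of these transcripts in the M1-M2 differences below was not tested, and in such bulk samples fewer cells of a type and less RNA per cell cannot be told apart. An exact permutation test of 3 against 3 libraries cannot go below p = 0.1, the value it gave for the fibroblast, cardiac and neutrophil sums between the DA-treated stimuli. Transcripts of the dopamine receptors were at the floor of the assay: the highest value in any WT library was 0.25 FPKM for Drd1, 0.04 for Drd4 and, where listed, 0.06 for Drd5, which is listed in the M2 tables and not in the M1 tables. The level of Drd5 was 0 in every M2 DRD5-/- library and 0.06 or less in the M2 WT libraries, so it does not check the genotype.

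DA-treated M1 and M2 WT BMDMs differed in most of their transcriptome. Of 11003 genes tested (1 FPKM or more in at least 3 of the 12 WT libraries), 8827 (80.2%) differed by at least 1.2-fold at an adjusted p under 0.001 (limma on log2(FPKM + 1), Benjamini-Hochberg adjustment), 2549 higher in M1 (23.2%) and 6278 higher in M2 (57.1%). Without DA 8510 genes (77.3%) differed, 2480 higher in M1 (22.5%) and 6030 higher in M2 (54.8%). The median absolute difference was 0.80 on the log2 scale with DA and 0.69 without it. At 2-fold the counts were 4401 (40.0%) with DA and 3750 (34.1%) without. The excess of genes higher in M2 depends on the scale: the median M1-M2 difference over all tested genes was -0.46 with DA and -0.39 without it, and median-of-ratios scaling moved it by 0.45 and 0.38 to about -0.01 in both cases. Of the genes past the threshold, the share higher in M1 was 28.9% with DA on the deposited scale, 48.8% after median-of-ratios scaling and 46.5% after quantile normalization, and without DA it was 29.1%, 49.6% and 44.5%. Every M1-M2 difference below is therefore to be read beside a median gene at -0.46 or -0.39.

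The M1-M2 difference itself changed with DA for 4901 genes (44.5%). It moved towards M1 for 1852 of them (16.8% of all tested) and towards M2 for 3049 (27.7%), a share of 37.8% towards M1 that became 46.7% with median-of-ratios scaling and 50.8% with quantile normalization. Of these genes, 1584 narrowed (a difference past the threshold without DA became smaller; 14.4% of all tested), 3025 widened (a difference past the threshold with DA was larger than without; 27.5%) and 193 reversed (past the threshold in both conditions with opposite signs; 1.75%), and 99 (0.9%) passed the threshold in neither sense. A change of 2-fold or more was seen for 953 genes (8.66%), 329 towards M1 (2.99%) and 624 towards M2 (5.67%). Most class changes came through the M2 cells: among the narrowed genes DA alone passed the threshold in M2 only for 1070, in M1 only for 158 and in both for 205, and among the widened genes these counts were 1926, 237 and 487. The class is sensitive to scale where the difference lies near 0. Of the 193 reversed genes, 48 were reversed after median-of-ratios scaling and 100 after quantile normalization, against 1221 and 1257 of the 1584 narrowed genes.

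**Figure D1:**
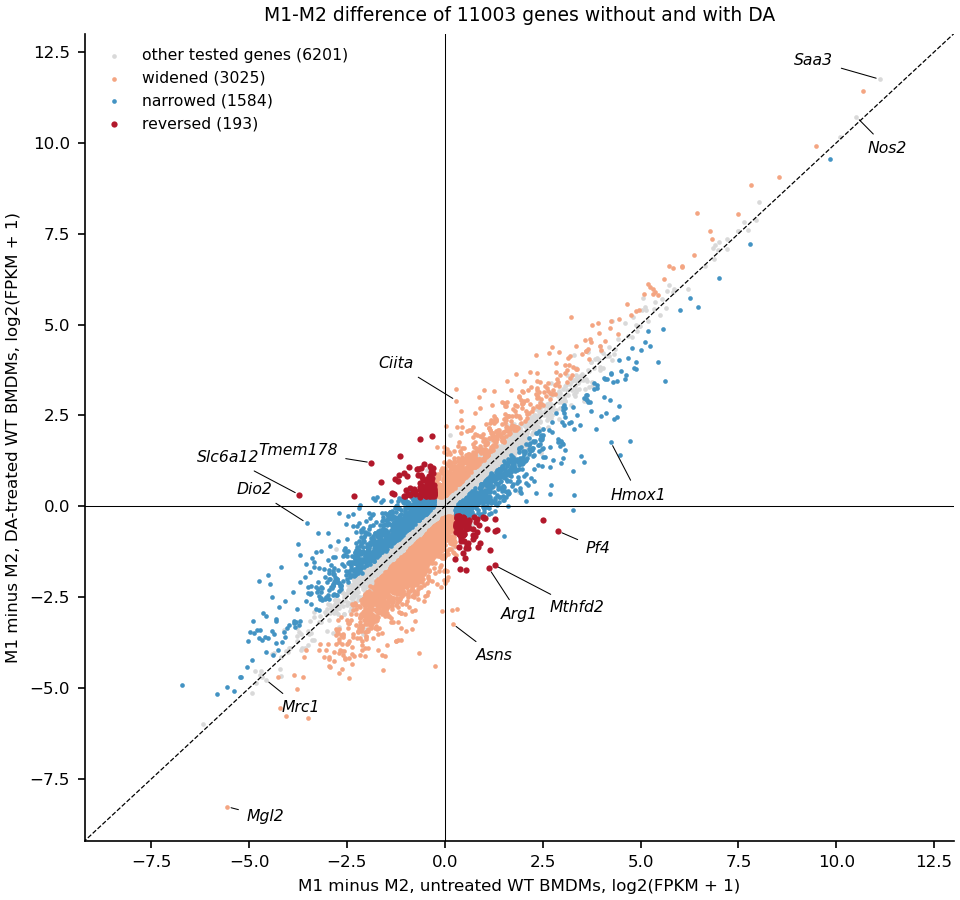
M1 minus M2 difference of each of the 11003 tested genes in WT BMDMs, without DA (x axis) and with DA (y axis), both on the log2(FPKM + 1) scale. Points on the dashed line had the same difference in both conditions, red points lie in the quadrants where the sign turned (193 genes), blue points moved towards 0 (1584) and orange points away from it (3025).

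The 5 largest differences towards M1 under DA were those of genes induced in M1 cells. Nos2, the inducible nitric oxide synthase, read 1669, 1712 and 1744 FPKM in the DA-treated M1 libraries and 0.03, 0.01 and 0.01 in the DA-treated M2 libraries. It was the third largest difference towards M1, after Saa3 (serum amyloid A3, 6908 to 7288 against 0.87 to 1.57 FPKM) and Acod1 (the itaconate-producing enzyme, 3736 to 3785 against 0.30 to 0.40 FPKM), and was followed by Cxcl10, a chemokine (1679 to 1687 against 0.32 to 0.63), and Gbp4, an interferon-induced GTPase (1053 to 1090 against 0.07 to 0.18). The change of the difference with DA did not pass the threshold for Nos2 (0.20 ± 0.035 SE on the log2 scale, adjusted p = 1.4e-04, 1.15-fold), Saa3 (0.63 ± 0.18) or Cxcl10 (0.08 ± 0.15). It passed for Acod1 (0.74 ± 0.080, adjusted p = 1.9e-06) and Gbp4 (0.42 ± 0.052, adjusted p = 6.9e-06), which widened. The DA effect on Acod1 in M2, where its level was low, was -0.75. With a pseudocount of 0.1 the Gbp4 change was 0.095 ± 0.21 and did not pass the threshold. The size of the Nos2 change moved with the settings, and it passed as widened with a pseudocount of 0.1 (1.70) and after rescaling over the shared genes (0.51). Mean Nos2 was lower with DA in both stimuli, at 1935 FPKM untreated and 1708 with DA in M1. In M2 it was 0.33 untreated and 0.02 with DA. The positive change thus rests on M2 values near the floor, not on a rise in M1.

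At the M2 end stood Mgl2 (a galactose-binding macrophage lectin), Ptgs1 (cyclooxygenase 1), Srm (spermidine synthase), Tox2 (a nuclear HMG-box protein) and Myc. Mgl2 read 389 to 405 FPKM with DA against 66.5 to 68.5 without it in M2, and 0.53 FPKM or less in every M1 library under either condition. Srm rose in M2 from 24.5 to 26.5 up to 82.6 to 90.2 FPKM, Tox2 from 17.7 to 19.6 up to 55.0 to 57.0, and Myc from 21.9 to 23.7 up to 63.5 to 66.7. All 4 widened towards M2 with DA (changes of -2.70, -2.32, -1.72 and -1.32 on the log2 scale, adjusted p of 1.4e-09 or less by limma). Ptgs1 did not: 97.2 to 99.7 FPKM with DA, 101 to 105 without it.

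Of the 8 tested cytokine genes of the M1 list, Il6, Tnf, Il12b, Il27 and Ebi3 narrowed, Il1a and Il1b widened (changes of 0.54 ± 0.053 and 1.63 ± 0.051) and Il18 did not pass the threshold (-0.13 ± 0.18). Il12b, a subunit of IL-12 and IL-23, was at 19.9, 20.3 and 20.0 FPKM in untreated and at 4.55, 4.28 and 4.69 in DA-treated M1 libraries. It was listed at 0 in every M2 WT library, so no fold between the stimuli is given, and the DA libraries lay well below the untreated ones (-1.94 ± 0.046 on the log2 scale in M1, adjusted p = 2.8e-12). Il6 was at 21.7 to 22.5 FPKM without DA, 11.5 to 13.6 with it and at 0.09 or less in M2, and its difference narrowed by 0.79 ± 0.085 (adjusted p = 1.7e-06). Tnf went the other way in both stimuli. It rose in M1 from 103 to 107 up to 143 to 146 FPKM and in M2 from 5.85 to 7.09 up to 14.0 to 15.1 FPKM, and since the rise on the log2 scale was larger in M2 (1.04 against 0.45), the M1-M2 difference narrowed from 3.82 to 3.23 (adjusted p = 5.1e-06). Socs1, a feedback inhibitor of JAK-STAT signalling, fell in M1 (295 to 322 down to 245 to 254 FPKM) and rose in M2 (35.5 to 40.3 up to 47.9 to 49.3), and Il10, an anti-inflammatory cytokine, rose in M2 from 1.07 to 1.5 up to 3.49 to 4.27 FPKM. Both narrowed, by 0.68 ± 0.059 and 0.91 ± 0.11 (adjusted p = 1.9e-07 and 7.6e-06). Cd86, a costimulatory ligand, fell in M1 from 102 to 106 down to 82.9 to 84.2 FPKM, and the change of its M1-M2 difference did not pass the threshold (-0.33 ± 0.087, adjusted p = 0.0039). Both Cd86 values lie near the threshold: its fall in M1 did not pass under any of the 3 other scalings, and the change of its difference passed in the fit of all 24 libraries (adjusted p = 6.5e-04).

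Of 45 tested genes of the M1 list, 43 were higher in M1 with DA and 43 without (23.2% and 22.5% over all genes). The median difference was 3.79 and 3.83, and 2 genes, Slc7a2 and Cxcl1, were reversed. Of 52 tested genes of the M2 list, 34 were higher in M2 with DA and 35 without (median -1.38 and -1.49). The shares higher in M2 over all genes were 57.1% and 54.8%. With DA 15 genes of the M2 list were higher in M1 (23.2% over all genes). Those 15 included Il1rn (the IL-1 receptor antagonist, 1263 to 1313 FPKM in M1 against 15.2 to 15.9 in M2 with DA), Ccl22, Il4ra, Socs1, Vegfa, Cebpb and Msr1. Slc7a2, an arginine transporter, was the single gene of the M1 list higher in M2 under DA, at 81.7 to 83.5 FPKM against 50.8 to 52.2 in M1. It had been higher in M1 without DA (68.1 to 69.8 against 26.8 to 28.9), but after median-of-ratios scaling its DA difference was -0.15 and no longer passed the threshold. The M1-M2 difference changed in 26 genes of the M1 list (10 towards M1, 16 towards M2) and in 31 of the M2 list (14 and 17), beside the 44.5% over all genes.

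The 3 marker genes behaved in 3 ways. Arg1 (chr10:24915207-24927470, GRCm38.p6), the urea-cycle enzyme that cleaves arginine, read 64.5, 64.7 and 64.0 FPKM in untreated M1, 28.5, 29.9 and 28.5 in untreated M2, 181, 176 and 185 in DA-treated M1 and 589, 600 and 586 in DA-treated M2. Without DA every M1 library was thus above every M2 library, against the use of Arg1 as an M2 marker, and with DA every M2 library was above every M1 library. DA raised Arg1 2.775-fold in M1 and 19.8-fold in M2 on the FPKM + 1 scale. The M1-M2 difference turned from 1.13 ± 0.026 to -1.71 ± 0.026 on the log2 scale (change -2.83 ± 0.037, adjusted p = 4.0e-15). The reversal was found under each of the 4 scalings.

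Hmox1 (chr8:75093618-75100593) was among the most abundant transcripts. It read 3870, 3707 and 3841 FPKM in untreated and 9780, 10130 and 9849 FPKM in DA-treated M1, and 198, 203 and 202 FPKM in untreated and 2929, 2870 and 2914 FPKM in DA-treated M2. DA raised it in both stimuli, 2.61-fold in M1 and 14.4-fold in M2, and M1 stayed above M2. The 18.9-fold excess in M1 shrank to 3.42-fold (change -2.47 ± 0.033 on the log2 scale, adjusted p = 4.3e-15).

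Mrc1, the mannose receptor, read 303, 299 and 315 FPKM in untreated and 541, 540 and 532 in DA-treated M2, and 11.6, 11.9 and 12.0 in untreated and 18.6, 19.3 and 18.6 in DA-treated M1. It rose 1.54-fold in M1 and 1.76-fold in M2, so that the M1-M2 difference hardly moved (-4.58 without DA and -4.76 with it; change -0.18 ± 0.037, 1.14-fold, under the 1.2-fold threshold). Chil3, a chitinase-like protein, rose in M2 from 43.4 to 46.4 up to 60.3 to 61.7 FPKM (0.44, adjusted p = 8.0e-04, a value just under the threshold that most alternatives put above it), was at 1.99 FPKM or less in M1, and its change of the difference did not pass the threshold (-0.48 ± 0.13, adjusted p = 0.0057).

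**Figure D2:**
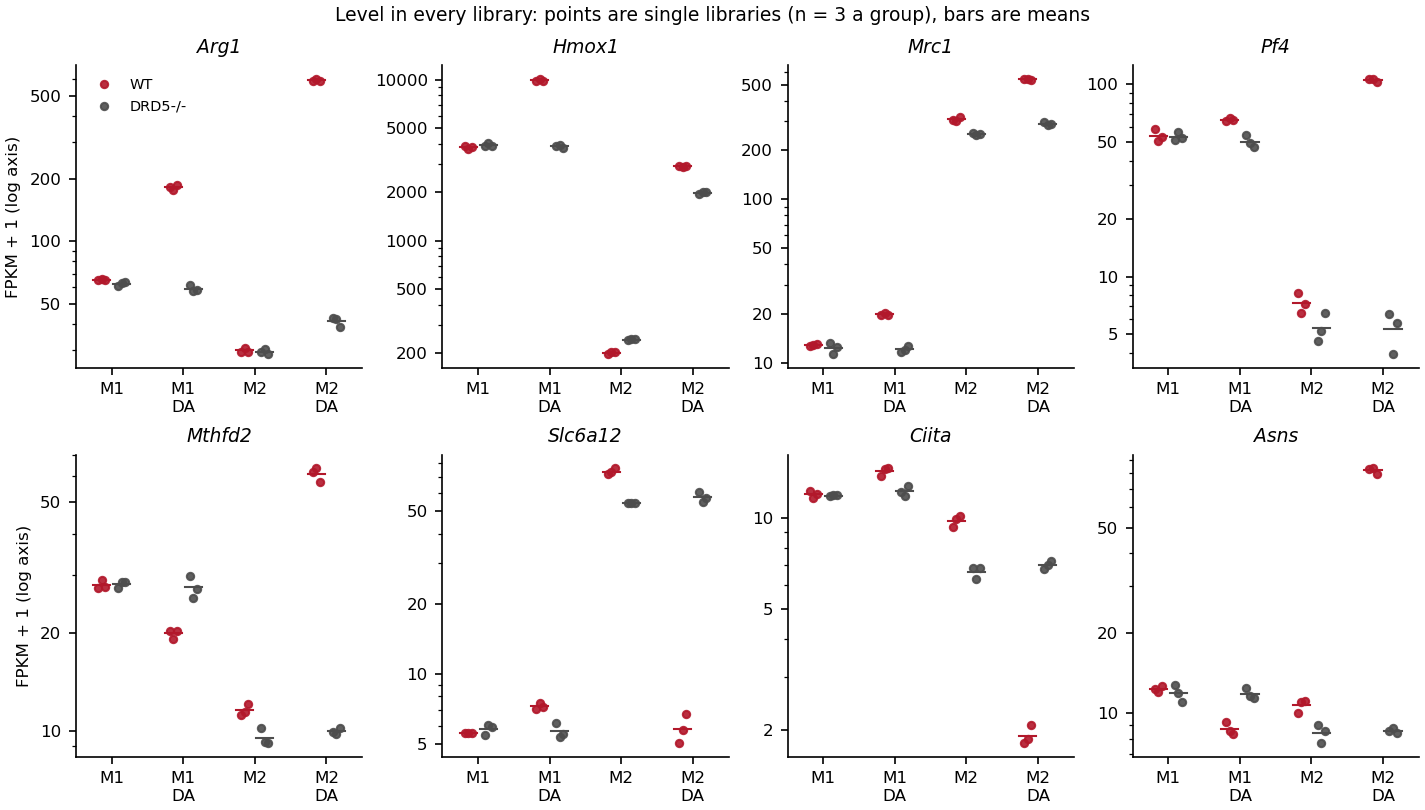
FPKM + 1 on a log axis of 8 genes in every library, with WT in red and DRD5-/- in grey (3 libraries a group, bars are means). Arg1, Pf4 and Mthfd2 were higher in M1 than in M2 without DA and higher in M2 with it in WT, Slc6a12 and Ciita lost their M2 level with DA, and in DRD5-/- of the 8 genes Hmox1 alone rose by more than 2-fold with DA.

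Among the reversed genes, 89 were higher in M1 without DA and 104 higher in M2. The 5 largest changes from the M1 side were those of Arg1, of Pf4, a platelet-type CXC chemokine, of Mthfd2 and Psat1, enzymes of one-carbon and serine metabolism, and of Raet1d. Pf4 read 57.6, 49.5 and 52.0 FPKM in untreated and 63.2, 66.0 and 64.0 in DA-treated M1, and rose in M2 from 7.24, 5.43 and 6.16 to 105, 105 and 102 FPKM. It moved from 7.45-fold higher in M1 to 1.6-fold higher in M2 (change -3.58 ± 0.10, adjusted p = 3.4e-12), although its DA difference was -0.16 after median-of-ratios scaling and did not pass the threshold there. Mthfd2, a mitochondrial folate enzyme, read 26.5, 28.0 and 26.7 FPKM in untreated and 19.2, 18.2 and 19.3 in DA-treated M1, and 10.2, 10.5 and 11.2 in untreated and 61, 62.6 and 56.8 in DA-treated M2. It fell in M1 and rose in M2, and no library of one stimulus overlapped those of the other in either condition (change -2.89 ± 0.061, adjusted p = 2.3e-13). Psat1, a serine biosynthesis enzyme, fell in M1 from 59.2 to 60.1 down to 31.1 to 32.6 FPKM and rose in M2 from 9.32 to 10.1 up to 40.6 to 42.2 FPKM. Its small DA difference (-0.37 ± 0.032) was 0.15 after median-of-ratios scaling. Raet1d, a ligand of the NKG2D receptor with near-identical paralogs among which reads may be split, rose in M2 from 0.77 to 1.59 up to 9.57 to 10.1 FPKM and read 2.97 to 4.25 FPKM in all M1 libraries.

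From the M2 side, Slc6a12, a betaine and GABA transporter, read 70.9, 72.4 and 75.3 FPKM in untreated M2 and 4.05, 4.73 and 5.70 in DA-treated M2. Its M1 values were 4.57, 4.60 and 4.56 without and 6.06, 6.51 and 6.18 FPKM with DA. A 13.2-fold excess in M2 thus became a 1.25-fold excess in M1 (change 4.05 ± 0.11, adjusted p = 1.6e-12); with a pseudocount of 0.1 the DA difference did not pass the threshold. Ptpro, a receptor tyrosine phosphatase, rose in M1 (10.0 to 10.3 up to 14.8 to 15.3 FPKM) and fell in M2 (23.3 to 24.5 down to 4.83 to 5.85). Tmem178, a membrane protein of the endoplasmic reticulum, rose in M1 (1.36 to 1.84 up to 3.21 to 3.80 FPKM) and fell in M2 (8.09 to 8.68 down to 0.69 to 1.22), and Tcp11l2 fell in M2 from 19.1 to 19.6 down to 2.45 to 2.86 FPKM at an M1 level of 2.91 to 3.83. The neutrophil chemokine gene Cxcl1 read 2.10 to 3.55 FPKM in untreated M1, 4.35 to 5.39 in untreated M2, 3.91 to 4.44 in DA-treated M1 and 0.26 to 0.63 in DA-treated M2. Its untreated difference of -0.64 ± 0.13 did not pass the threshold after median-of-ratios scaling (-0.30), and it is then classed as widened.

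Of these 10 genes, Arg1, Mthfd2, Raet1d, Slc6a12, Tmem178, Tcp11l2 and Ptpro were classed as reversed under all 4 scalings, and Pf4, Psat1 and Cxcl1 were not. At 2-fold in both conditions 5 genes were reversed.

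The narrowed genes comprised 592 higher in M1 and 992 higher in M2 without DA, with median differences of 1.2 going to 0.51 and -1.3 going to -0.62. On the M1 side the chemokine gene Ccl7 read 753 to 796 FPKM in untreated and 773 to 791 in DA-treated M1 and rose in M2 from 74.7, 78.3 and 80.9 to 627, 650 and 619 FPKM, so that a 9.85-fold M1 excess became 1.24-fold. Ccl2, another monocyte-attracting chemokine gene, rose in M2 from 82.9 to 91.5 up to 460 to 477 FPKM, with 1039 to 1092 FPKM in all M1 libraries. Slc7a8, a neutral amino acid transporter, rose in M2 to just above the M1 libraries, with 226 to 236 FPKM in untreated M1, 22.5 to 23.8 in untreated M2, 243 to 251 in DA-treated M1 and 256 to 270 in DA-treated M2 (change -3.35 ± 0.040, adjusted p = 2.8e-15). Ch25h, the cholesterol 25-hydroxylase, narrowed from both ends. It fell in M1 from 113 to 118 down to 47.9 to 54.0 FPKM and rose in M2 from 4.02 to 4.35 up to 17.5 to 20.0.

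On the M2 side the genes with the largest narrowing handle lipid, retinoid, thyroid hormone and prostaglandin. Fabp4, a fatty acid-binding protein, rose in M1 from 24.8, 29.9 and 29.5 to 53.7, 48.5 and 46.8 FPKM and fell in M2 from 179, 182 and 206 to 55.0, 57.4 and 57.7 FPKM. A 6.55-fold M2 excess was 1.14-fold with DA, and after median-of-ratios scaling the gene was classed as reversed. Dio2, which activates thyroid hormone, rose in M1 (1.10 to 1.37 up to 2.78 to 3.06 FPKM) and fell in M2 (24.1 to 25.5 down to 4.14 to 4.61). Hpgd, the prostaglandin-degrading dehydrogenase, fell in M2 from 26.2 to 31.4 down to 3.31 to 3.58 FPKM, Rbp4, the retinol carrier, from 11.7 to 13 down to 1.02 to 1.14, and Slco4a1, an organic anion transporter, from 153 to 163 down to 32.8 to 35.8. Hpgd and Rbp4 were at 0.19 FPKM or less in every M1 library.

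Of the widened genes, 706 were higher in M1 and 2319 higher in M2 under DA, with median differences of 0.54 going to 1.21 and -0.74 going to -1.43. Towards M1 the leading genes stayed in M1 and fell in M2. Ciita, the master transactivator of MHC class II genes, read 11.3, 10.7 and 11 FPKM in untreated and 12.8, 13.6 and 13.6 in DA-treated M1, and 8.33, 8.91 and 9.14 in untreated and 0.81, 0.86 and 1.07 in DA-treated M2 (difference 0.29 going to 2.91, adjusted p of the change = 4.9e-12). Ifitm6, of the interferon-induced transmembrane family, fell in M2 from 35.6 to 37.8 down to 3.84 to 5.06 FPKM at an M1 level of 43.5 to 52.6. Kynu, the kynurenine-degrading enzyme, fell in M2 from 3.92 to 4.44 down to 0.12 to 0.22 FPKM, and Apol7c, an apolipoprotein L, from 4.07 to 4.95 down to 0.19 to 0.27. Btg1, an antiproliferative protein, rose in M1 from 75.3 to 76.7 up to 107 to 110 FPKM and fell in M2 from 36.3 to 38.7 down to 10.8 to 11.1.

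Towards M2 the widening was led by genes that, apart from Slc7a5, were near equal in the untreated stimuli. Slc7a5 was already higher in M2 without DA (-0.67 ± 0.065, adjusted p = 2.0e-07 by limma). Id1, an inhibitor of basic helix-loop-helix factors, read 2.45, 2.61 and 2.32 FPKM in untreated M1, 3.53, 2.76 and 3.19 in untreated M2, 1.09, 0.88 and 1.80 in DA-treated M1 and 43.7, 50.1 and 43.9 in DA-treated M2 (difference -0.26 going to -4.40, change -4.13 ± 0.17, adjusted p = 8.5e-11). Ccnd1, cyclin D1, rose in both, in M1 from 22.8 to 23.9 up to 30.6 to 32.6 and in M2 from 20.1 to 20.7 up to 230 to 237 FPKM. Amino acid genes formed the rest of the leading set. Asns, asparagine synthetase, read 11.4, 11 and 11.7 FPKM in untreated and 8.29, 7.57 and 7.35 in DA-treated M1, and 9.04, 9.99 and 10.2 in untreated and 82.0, 82.6 and 78.6 in DA-treated M2. Slc7a5, a large neutral amino acid transporter, rose in M2 from 1.83 to 2.32 up to 22.8 to 24.7 FPKM and fell in M1 from 0.79 to 1.01 down to 0.46 to 0.52. Chac1, which degrades glutathione, rose in M2 from 0.66 to 1.08 up to 8.43 to 10.3 FPKM and fell in M1 from 1.27 to 1.47 down to 0.24 to 0.61. With Mthfd2 and Psat1 above, these are genes that the transcription factor ATF4 is known to control. After median-of-ratios scaling or quantile normalization the untreated differences of Asns, Chac1 and Ccnd1 passed the threshold towards M1, and these 3 genes were then classed as reversed.

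The promoter windows of Asns and Chac1 are shown as examples that hold the motif below. Both are among the 486 genes that went up in M2 and down in M1 with DA. Each is the 250 bases before the RefSeq start (GRCm38.p6), with matches to TGATGNAA, the core of the element that ATF4 dimers bind, in capitals on either strand. Asns lies at chr6:7693210-7693459, minus strand, with the match starting 23 bases before the start, and Chac1 at chr2:119350992-119351241, plus strand, with the reverse match starting 193 bases before it.
Asns: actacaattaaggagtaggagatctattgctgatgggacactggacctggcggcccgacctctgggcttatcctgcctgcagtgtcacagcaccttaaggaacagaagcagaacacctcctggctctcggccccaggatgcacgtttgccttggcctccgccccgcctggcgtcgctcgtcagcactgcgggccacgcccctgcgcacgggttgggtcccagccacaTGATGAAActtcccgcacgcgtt
Chac1: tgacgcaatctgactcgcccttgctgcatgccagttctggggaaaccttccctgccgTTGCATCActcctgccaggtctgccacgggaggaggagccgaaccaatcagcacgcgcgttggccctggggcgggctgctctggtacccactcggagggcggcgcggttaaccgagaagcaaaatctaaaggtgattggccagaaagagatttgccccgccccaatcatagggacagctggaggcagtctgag
This motif was added after the values were seen. It was held by 3.97% of the 32851 RefSeq windows of 300 bases (250 before and 50 after the start) and by 2.32% of the windows of the genes tested. The share was 2.08% of the 2310 windows of the genes widened towards M2. For the genes that fell in M1 and rose in M2 it was 2.88% of 451 windows. A match is a description of the letters, and control by ATF4 was not tested.

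DA alone changed 1503 genes (13.7%) in M1, 495 up (4.5%) and 1008 down (9.16%), and 4965 genes (45.1%) in M2, 2785 up (25.3%) and 2180 down (19.8%). At 2-fold the counts were 44 in M1 (0.4%), 22 in each direction, and 624 in M2 (5.67%), 356 up (3.24%) and 268 down (2.44%), and the SD of the DA effect over all genes was 0.22 in M1 and 0.51 in M2 on the log2 scale. In M1 the share of changed genes that rose was 32.9% on the deposited scale, 51.9% after median-of-ratios scaling and 53.3% after quantile normalization. Both DA effects rest on separate libraries. Of the genes past the threshold in both stimuli (940, which is 62.5% of the M1 and 18.9% of the M2 genes), 168 rose in both (1.53% of all tested), 129 fell in both (1.17%), 486 fell in M1 and rose in M2 (4.42%) and 157 rose in M1 and fell in M2 (1.43%). DA thus moved 297 genes alike and 643 oppositely. The group that fell in M1 and rose in M2 was the one that depended most on scale. Of its 486 genes, 321 were placed there after median-of-ratios scaling and 261 after quantile normalization. The group that fell in both also lost genes, with 100 and 89 of its 129 placed there. The counts were 164 and 159 of the 168 that rose in both and 156 and 155 of the 157 that rose in M1 and fell in M2. At 2-fold 14 genes changed in both stimuli, 12 of them in the same direction.

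The genes raised most in both stimuli, after Arg1 and Hmox1, were Plau, Mmp8 and Slc40a1. Plau, the urokinase plasminogen activator, rose in M1 from 8.44, 8.81 and 8.38 to 21.6, 21.5 and 23.7 FPKM and in M2 from 15.4, 16.0 and 16.7 to 168, 170 and 171. All DA libraries lay above all untreated libraries of their stimulus. Mmp8, a collagenase, rose in M1 from 12.4 to 15.1 up to 32.9 to 34.4 FPKM and in M2 from 1.10 to 1.67 up to 6.00 to 7.05, and the change of its M1-M2 difference did not pass the threshold (-0.45 ± 0.12, adjusted p = 0.0045), although it passed with a pseudocount of 0.1 (-0.93) and in the fit of all 24 libraries (adjusted p = 5.2e-04). Slc40a1, the iron exporter ferroportin, rose more in M1 (6.38 to 7.19 up to 39.2 to 40.9 FPKM) than in M2 (2.37 to 2.77 up to 6.95 to 7.60), unlike Arg1, Hmox1 and Plau, and widened towards M1 by 1.15 ± 0.076 (adjusted p = 1.1e-08).

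The genes lowered most in both were Hspa1b and Hspa1a, near-identical paralogs of the inducible chaperone HSP70 between which reads may be split. Hspa1b fell in M1 from 63.3, 65.6 and 63.4 to 7.17, 7.65 and 7.90 FPKM and in M2 from 7.44, 8.07 and 7.08 to 1.61, 1.76 and 1.75. Hspa1a fell in M1 from 86.4 to 96.0 down to 9.77 to 9.96 FPKM and in M2 from 3.15 to 3.30 down to 0.30 to 0.79. Enpp2, autotaxin, which makes lysophosphatidic acid, fell in M1 from 10.8 to 11.5 down to 2.87 to 3.02 and in M2 from 26.4 to 27.9 down to 10.1 to 10.4 FPKM. Ntng2, a netrin-G membrane protein, fell by nearly the same amount in M1 (-1.16) and M2 (-1.11), with a change of the difference of -0.05 ± 0.13 that did not pass the threshold. Cd83, a maturation marker of antigen-presenting cells, fell in M1 from 33.0 to 36.3 down to 15.1 to 17.4 FPKM and further in M2, from 102 to 108 down to 13.4 to 15.3, and the gene was classed as reversed after median-of-ratios scaling and quantile normalization.

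Genes moved oppositely included, besides Dio2, Fabp4 and Tmem178, Slc46a3 on the side raised in M1 and Ch25h, Cd300e, Hbegf, Ccnd2 and Slc16a1 on the side raised in M2. Slc46a3, a lysosomal transporter, rose in M1 from 1.17 to 1.48 up to 2.97 to 3.39 and fell in M2 from 19.4 to 20.1 down to 8.56 to 8.93 FPKM. Hbegf, an EGF receptor ligand, fell in M1 from 1.51 to 1.60 down to 0.26 to 0.36 FPKM and rose in M2 from 2.91 to 3.57 up to 7.89 to 9.52. Ccnd2, cyclin D2, fell in M1 from 21.8 to 22.5 down to 10.9 to 11.4 FPKM and rose in M2 from 2.28 to 2.68 up to 6.99 to 7.15. Slc16a1, the lactate transporter MCT1, fell in M1 from 5.01 to 5.50 down to 2.08 to 2.64 FPKM and rose in M2 from 3.32 to 3.58 up to 7.80 to 8.09, and was reversed under all 4 scalings. Cd300e, an activating myeloid receptor, fell in M1 from 11.6 to 12.5 down to 4.87 to 6.02 FPKM and rose in M2 from 0.31 to 0.38 up to 1.85 to 2.85.

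**Figure D3:**
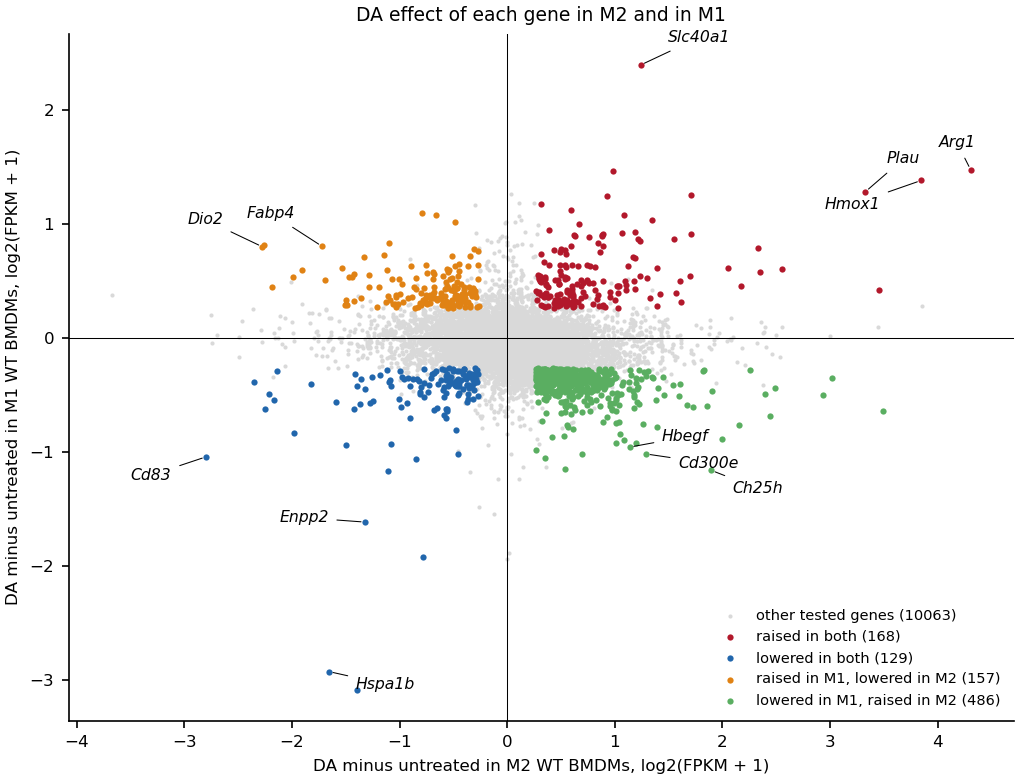
DA effect (DA minus untreated, log2(FPKM + 1)) of each tested gene in M2 (x axis) and M1 (y axis) WT BMDMs. Coloured points passed the threshold in both stimuli: 168 rose in both, 129 fell in both, 157 rose in M1 and fell in M2 and 486 fell in M1 and rose in M2. The x axis spans a wider range than the y axis.

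Most chaperone and proteasome genes moved towards M2. The share over all tested genes with the same call stands in parentheses beside the counts. Of 23 tested heat shock chaperones, 17 moved towards M2 (27.7% over all genes) and 1 towards M1 with DA, with a median change of -1.13 beside -0.09 over all genes; 16 fell in M1 (9.16% over all genes) and none rose, and 11 rose (25.3%) and 5 fell (19.8%) in M2. Hspd1, the mitochondrial HSP60, fell in M1 from 22.0, 21.5 and 21.9 to 13.2, 11.6 and 10.5 FPKM and rose in M2 from 65.1, 65.9 and 73.3 to 137, 147 and 140. Hsph1, an HSP110 co-chaperone, fell in M1 from 12.9 to 14.2 down to 5.86 to 6.47 and rose in M2 from 16.6 to 18.2 up to 28.0 to 28.9 FPKM. Hspb1, the small heat shock protein HSP27, fell in M1 from 3.93 to 4.61 down to 0.16 to 0.69 FPKM and read 1.57 to 2.26 in all M2 libraries. Thus 10 chaperones fell in M1 and rose in M2 (4.42% over all genes), while Hspa1a and Hspa1b fell in both (1.17%). One Hspd1 promoter window is shown because the M1-M2 difference moved towards M2 for 17 of the 23 genes, and because it holds the motif. It has 2 overlapping matches to GAA, TTC and GAA spaced by any 2 bases, the repeat bound by heat shock factors. Matches are in capitals (both strands, 250 bases before the start, GRCm38.p6, chr1:55087933-55088182, minus strand).
Hspd1: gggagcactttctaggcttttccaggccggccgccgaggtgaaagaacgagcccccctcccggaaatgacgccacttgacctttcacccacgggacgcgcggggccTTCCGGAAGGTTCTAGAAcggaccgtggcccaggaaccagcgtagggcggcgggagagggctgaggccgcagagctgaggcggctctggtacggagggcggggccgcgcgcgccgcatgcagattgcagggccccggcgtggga
That motif was in 5 of the 24 windows of this list (20.8%), 0.603% of all windows in the table and 0.485% of those of the genes tested. The part of heat shock factors in these changes was not tested.

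Of 36 proteasome genes, 29 moved towards M2 (27.7% over all genes) and 1 towards M1 (median change -0.55). In M1 16 fell (9.16%) and none rose, and in M2 17 rose (25.3%) and 1 fell. The subunit genes Psma6, Psmb7 and Psmd3 had been 1.6-fold to 2-fold higher in M1 without DA. Psma6 read 147 to 148 FPKM in untreated M1 and 70.8 to 81.6 in untreated M2, and 112 to 123 and 111 to 119 FPKM with DA, where the stimuli overlapped. Psmb7 fell in M1 from 133 to 138 down to 90.3 to 94.8 and rose in M2 from 79.6 to 86.0 up to 104 to 108 FPKM. The median M1-M2 difference of the list went from 0.55 to -0.04, though it stayed positive with DA under median-of-ratios scaling (0.48) and quantile normalization (0.05).

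Most proliferation genes moved towards M2. Of 35 DNA replication and mitosis genes, 23 moved towards M2 (27.7% over all genes) and none towards M1 (median change -0.87), 23 rose (25.3%) and none fell in M2, and 2 rose and 2 fell in M1. Mcm5 and Mcm2, subunits of the replicative helicase, rose in M2 from 8.64 to 9.41 up to 53.3 to 54.6 FPKM and from 8.67 to 9.15 up to 43.1 to 45.4, and were at 2.64 and 0.84 FPKM or less in every M1 library. Of 24 glycolysis and hypoxia genes 14 narrowed (14.4% over all genes). All 24 were higher in M1 without DA and 23 with it (22.5% and 23.2% over all genes). The median difference went from 2.21 to 1.80. In M2 13 rose (25.3%) and 2 fell (19.8%), and in M1 6 fell (9.16%) and 1 rose (4.5%). Ldha, lactate dehydrogenase A, rose in M2 from 406 to 427 up to 720 to 726 FPKM, with 1186 to 1252 in all M1 libraries. Pfkl, liver-type phosphofructokinase, read 81.3 to 86.8 FPKM in untreated and 67.9 to 73.8 in DA-treated M1 and rose in M2 from 12.0 to 12.4 up to 21.7 to 22.5.

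Most antigen presentation and lysosomal genes moved towards M1 and fell in M2. Of 15 MHC and antigen presentation genes, 12 moved towards M1 (16.8% over all genes) and 1 towards M2 (median change 0.85), 12 fell (19.8%) and 1 rose in M2, and the median DA effect in M1 was 0.03. H2-Eb1, an MHC class II chain, read 115, 110 and 112 FPKM in untreated and 49.6, 50.8 and 53.1 in DA-treated M2, and 73.1 to 77.8 in all M1 libraries, and Tapbp, which loads peptides on MHC class I, fell in M2 from 155 to 177 down to 81.0 to 83.1 FPKM. H2-DMa, which edits class II peptides, fell in M2 from 41.7 to 48.3 down to 21.3 to 24.3. Of 25 lysosomal genes, 19 moved towards M1 (16.8% over all genes) and 1 towards M2 (median change 0.60), 19 fell (19.8%) and 1 rose in M2, and 4 rose in M1 (4.5%). Ctsc, cathepsin C, rose in M1 from 626 to 646 up to 932 to 964 FPKM and fell in M2 from 65.5 to 70.6 down to 23.6 to 25.6. Ctsk, cathepsin K, fell in M2 from 20.2 to 20.9 down to 8.14 to 9.47 FPKM, within the range of the M1 libraries (7.89 to 9.77).

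Of 23 sterol synthesis and uptake genes, 15 rose (4.5% over all genes) and none fell in M1, 14 rose (25.3%) and 1 fell in M2, 11 rose in both (1.53%), and the median change of the difference was 0.02. Sqle, squalene epoxidase, rose in M1 from 7.49 to 8.54 up to 11.3 to 12.0 FPKM and in M2 from 12.8 to 13 up to 29.6 to 31.1, and Dhcr7, the last enzyme of cholesterol synthesis, fell in M2 from 27.1 to 28.9 down to 22.2 to 23.2. Of 11 sterol efflux genes, targets of LXR, 7 moved towards M1 (16.8% over all genes) and 1 towards M2 (median change 0.56), with 6 falling (19.8%) and 1 rising in M2 and 2 rising in M1. Abca1, the cholesterol exporter, read 22.4, 22.6 and 23.1 FPKM in untreated and 18.9, 19.4 and 18.4 in DA-treated M1, and 12.7, 12.6 and 13.6 in untreated and 2.33, 2.36 and 2.33 in DA-treated M2. Abcg1, its partner in efflux, fell in M2 from 103 to 104 down to 29.1 to 30.4 FPKM at an M1 level of 61.6 to 65.1, and was reversed except after median-of-ratios scaling. Nr1h3, which encodes LXRα, fell in M2 from 18.6 to 20.4 down to 8.61 to 9.74 FPKM.

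Of 25 heme and iron genes, 14 moved towards M1 (16.8% over all genes) and 2 towards M2 (27.7%), with a median change of 0.30, while Hmox1 moved towards M2. In M1 9 rose (4.5%) and 2 fell, and in M2 5 rose (25.3%) and 8 fell (19.8%). Bach1, the heme-sensing repressor of Hmox1, rose in M1 from 23.0 to 23.5 up to 29.6 to 30.3 and fell in M2 from 26.5 to 27.1 down to 15.3 to 16.6 FPKM. Ncoa4, the ferritinophagy receptor, fell in M2 from 143 to 146 down to 52.7 to 54.0 FPKM and rose in M1 from 45.2 to 46.1 up to 56.1 to 59.0. Of 30 NRF2 and glutathione genes, 16 rose (4.5% over all genes) and none fell in M1, 12 rose (25.3%) and 8 fell (19.8%) in M2, and 8 rose in both (1.53%). Gclm, a subunit of the rate-limiting enzyme of glutathione synthesis, rose in M1 from 92.8 to 95.2 up to 160 to 165 and in M2 from 9.72 to 10.7 up to 53.0 to 57.8 FPKM, which narrowed its difference by 1.54 ± 0.051 (adjusted p = 1.4e-11). Mgst1, a microsomal glutathione transferase, and Gpx1, a glutathione peroxidase, rose in M1 and fell in M2. Mgst1 was near 64 FPKM in both untreated stimuli (63.4 to 64.5 in M1, 64.1 to 64.9 in M2) and 89.7 to 95.6 against 30.7 to 33.1 with DA.

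Of 26 genes of NF-κB subunits and inhibitors, 14 fell (19.8% over all genes) and 4 rose (25.3%) in M2, and 4 fell (9.16%) and 1 rose (4.5%) in M1. Their M1-M2 difference changed for 11, 7 towards M1 and 4 towards M2, a share near the 44.5% over all genes (median change 0.06). Nfkbiz, an atypical IκB protein, fell in M2 from 2.53 to 2.61 down to 0.67 to 0.78 FPKM and read 16.9 to 18.1 in all M1 libraries. Of 24 CREB and cAMP target genes, 12 fell (9.16% over all genes) and 2 rose (4.5%) in M1, and 9 fell (19.8%) and 8 rose (25.3%) in M2. The M1-M2 difference moved towards M1 for 5 (16.8%) and towards M2 for 10 (27.7%), with a median change of -0.11. Id3, like Id1 an inhibitor of helix-loop-helix factors, rose in M2 from 8.84 to 10.1 up to 40.7 to 44.7 FPKM, and Odc1, ornithine decarboxylase, which takes up the product of arginase 1, fell in M1 from 19.9 to 21.1 down to 11.3 to 12.3 and rose in M2 from 17.9 to 21.4 up to 47.5 to 48.8. All 35 interferon-induced genes were higher in M1 with and without DA (23.2% and 22.5% over all genes). The M1-M2 difference of 15 moved towards M1 (16.8% over all genes) and of 5 towards M2 (27.7%), with a median change of 0.19, and 14 fell (19.8%) and 2 rose (25.3%) in M2. Gbp2, a guanylate-binding protein, read 1863 to 1901 FPKM in untreated and 2201 to 2244 in DA-treated M1, and fell in M2 from 7.10 to 7.48 down to 3.38 to 4.44. Of 16 matrix protease and plasminogen genes, 8 rose (4.5% over all genes) and 1 fell in M1 and 11 rose (25.3%) and 5 fell (19.8%) in M2 (median change -0.39). Timp1, a metalloproteinase inhibitor, rose in M2 from 36.3 to 40.2 up to 106 to 112 FPKM, above the M1 libraries (92.3 to 101), while Mmp19 fell in M2 from 16.1 to 16.9 down to 6.73 to 8.07. The signs of these list changes held under the 4 scalings, except for the sterol synthesis list with its median near 0 (-0.0036 after quantile normalization).

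**Figure D4:**
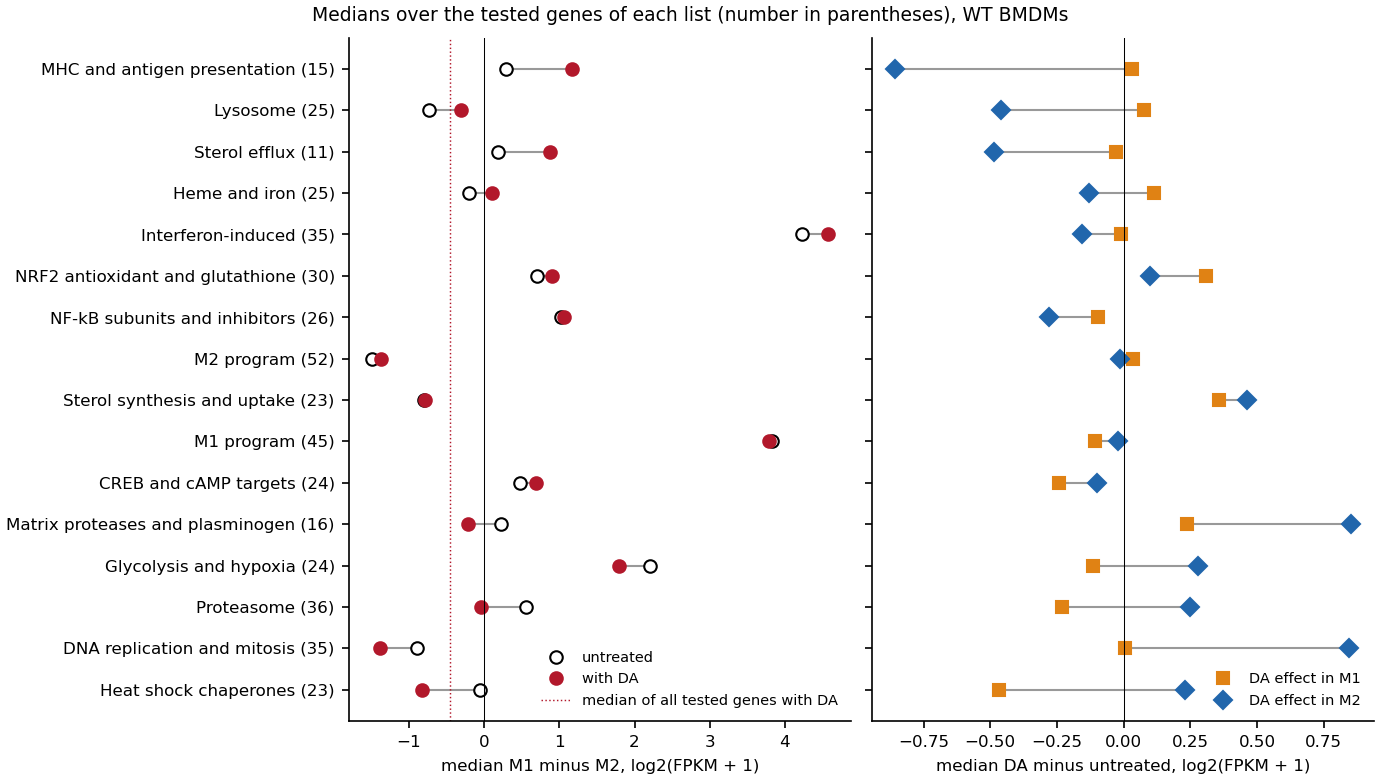
Medians over the tested genes of 16 gene lists in WT BMDMs (number of genes in parentheses), ordered by the change of the M1-M2 difference. The left panel gives the median M1 minus M2 difference without DA (open) and with DA (filled), and the right panel the median DA effect in M1 (squares) and M2 (diamonds), both in log2(FPKM + 1). The proteasome, lysosome and matrix medians with DA change sign under another scaling. Antigen presentation, lysosomal and sterol efflux genes moved towards M1 through a fall in M2, and chaperone, replication, proteasome and glycolysis genes towards M2.

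In DRD5-/- BMDMs the M1-M2 difference changed with DA for 129 of 11148 genes (1.16%), 15 towards M1 and 114 towards M2, and for 3 genes at 2-fold (0.0269%) (limma on all 24 libraries). DA alone passed the threshold for no gene in M1 by limma, with 830 at an unadjusted p under 0.05, and for 465 genes (4.17%) in M2, 3 of them at 2-fold (0.0269%). The genotypes differed in the change for 4140 genes (37.1%), 1107 at 2-fold (9.93%), counts that use the WT libraries already seen. Of the classes above, 6 of the 193 reversed, 40 of the 1584 narrowed and 49 of the 3025 widened genes passed the threshold in DRD5-/-. Among the 168 genes raised in both stimuli the count was 25, the largest share of these groups. The median absolute change of the reversed genes was 1.08 in WT and 0.09 in DRD5-/-, beside 0.32 and 0.09 over all genes tested. The reversed genes were chosen by their change in the same WT libraries, so their larger WT median follows in part from that choice.

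Arg1 in DRD5-/- read 60.8, 56.9 and 57.1 FPKM with DA in M1 (mean 58.3, against 61.4 without) and a mean of 40.5 against 28.5 in M2, and stayed higher in M1. The change was -0.57 ± 0.049 there and differed from that in WT by -2.27 ± 0.069 (adjusted p = 4.7e-17). Hmox1 did not follow this pattern. It read 1957, 2009 and 2016 FPKM in DA-treated M2 DRD5-/- libraries against 241, 244 and 243 in untreated ones, and had a mean of 3873 FPKM in M1 with DA and 3950 without. Its M1-M2 difference thus narrowed in DRD5-/- as well, by 3.06 ± 0.033, which is more than in WT (difference 0.60 ± 0.046, adjusted p = 2.4e-10). Slc40a1 rose in the M2 cells of DRD5-/- from a mean of 3.76 to 13.3 FPKM and Gclm from 10.3 to 24.3 FPKM, and Slc40a1 moved towards M2 in DRD5-/- (-1.48) and towards M1 in WT (1.15). Mrc1 showed no difference between the genotypes past the threshold in this measure (0.06 ± 0.053, adjusted p = 0.52). The cardiac and neutrophil transcripts described above were in the M1 WT libraries and near 0 in the DRD5-/- libraries, with and without DA, and their part in the genotype difference was not tested.

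**Figure D5:**
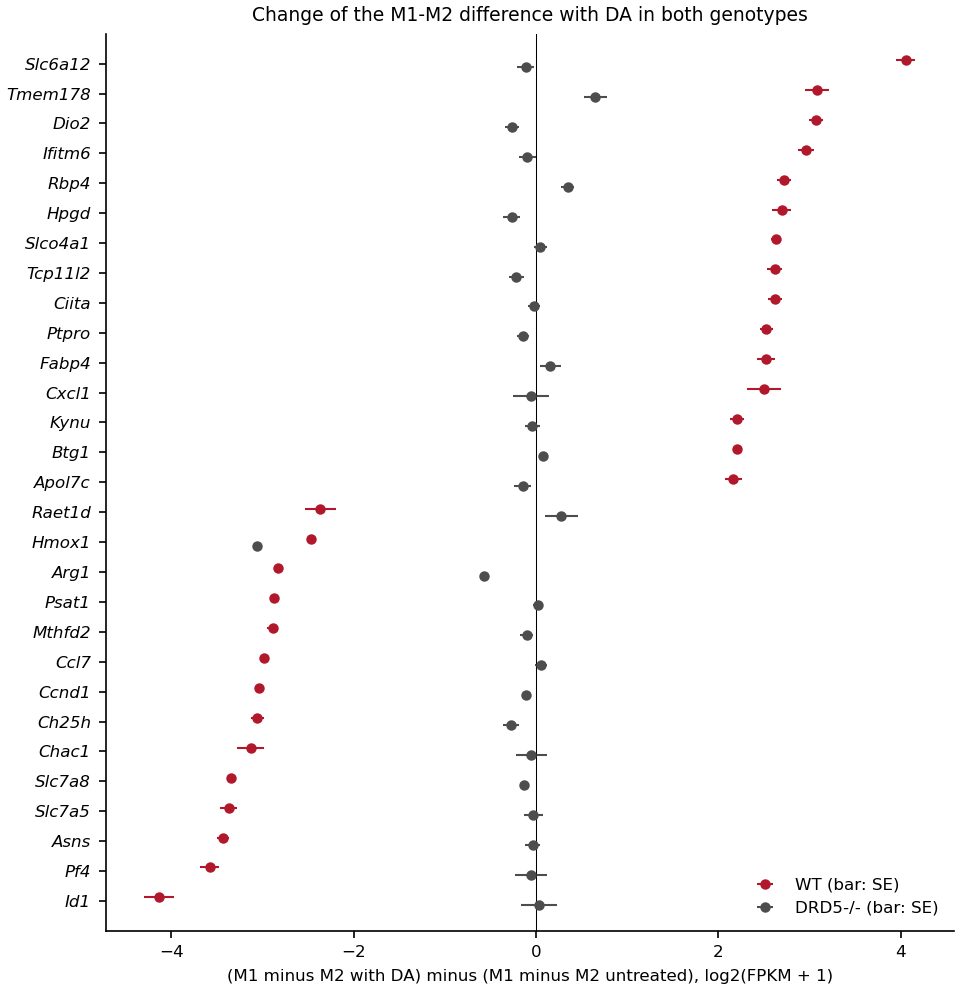
Change of the M1-M2 difference with DA (log2(FPKM + 1), bars are SE) for 29 of the 30 genes with the largest changes among reversed, narrowed and widened genes, which were chosen by the WT values. WT values (red, fit of 12 libraries) lie beyond 2 in either direction, and DRD5-/- values (grey, fit of 24 libraries) lie near 0 for all but Hmox1, with smaller departures for Arg1, Tmem178 and Rbp4.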

How the data were processed

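RNA from 24 libraries of WT and DRD5-/- BMDMs was sequenced on the BGISEQ-500 platform. The deposited FPKM values were made by the authors, who filtered and mapped reads to the mouse genome (HISAT2 in the methods and labels, while the submitters' processing notes name Bowtie2 2.2.5 and GRCm38.p6), counted them per gene and normalized them by transcript length and library size. No read counts were used, so depth is unknown and its effect on low values could not be measured.

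Groups were taken from the labels, and genes were joined by gene identifier over those listed for both stimuli. Genes at 1 FPKM or more in at least 3 of 12 WT libraries were fitted with limma 3.58.1 (R 4.3.3, intensity trend) on log2(FPKM + 1), a scale that understates the change of low genes. The threshold was a Benjamini-Hochberg adjusted p under 0.001 and a 1.2-fold change. The change of the M1-M2 difference with DA was the interaction term. Genotypes were compared in a fit of all 24 libraries. Folds are on the FPKM + 1 scale. The fits were tested on simulated data. Figures were drawn with matplotlib 3.10.9.

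Genes named were the 3 markers, the polarization genes and dopamine receptors that the study names, the 5 largest changes from each side of each class, the 5 genes of each pattern of DA effects ranked by the smaller effect, the 5 largest M1-M2 differences each way with DA, up to 4 members of each list with the largest change, and members of the M1 and M2 lists on the unexpected side. A few further genes (Retnla, Ccl17, Irf4 and other cell markers) were named as checks. A few items that meet these rules are not reported here. The members and lists were chosen with earlier results of these data known. Promoter windows are from RefSeq (GRCm38.p6) and were matched for 86 of 124 named genes. Same-numbered libraries were not paired in the main design. Alternatives were other scalings, filters, pseudocounts, thresholds, a replicate block and leaving out each library.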

Additional observations from a re-analysis of the deposited data

Results flagged for a closer look

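The DA effect differed between M1 and M2 WT BMDMs for 4901 genes, and the change of the M1-M2 difference with DA differed between WT and DRD5-/- for 4140 genes, both by the interaction terms of limma fits. Of the fixed polarization genes and the named reversed genes, those whose change differed between the genotypes are given here as WT minus DRD5-/- on the log2 scale. The value was -2.27 for Arg1, 0.596 for Hmox1, -0.735 for Il6, -1.93 for Il12b and -0.614 for Socs1. Among the reversed genes it was -3.53 for Pf4, -2.79 for Mthfd2, -2.9 for Psat1 and -2.64 for Raet1d, and in the opposite direction 4.17 for Slc6a12, 2.43 for Tmem178, 2.83 for Tcp11l2, 2.67 for Ptpro and 2.55 for Cxcl1. The reversed genes were chosen on the same WT libraries. Hmox1 is the one gene of these 14 for which the DRD5-/- change (-3.06) was larger than the WT change (-2.47).

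Genes listed for 1 stimulus entered no comparison. Of those with a mean of 5 FPKM or more with DA and a DA range above all untreated libraries, Gbp10, a guanylate-binding protein, had a mean of 41.7 FPKM in DA-treated against 29.6 in untreated M1 WT libraries, and Gm15056 had 20.2 against 14.1. Msx3, a homeobox gene, had 18.4 FPKM in DA-treated and 1.47 in untreated M2 WT libraries, against 0.77 and 0.73 FPKM in DRD5-/-. Groups of 3 libraries are too small for a test of single outlying libraries.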

How the results depend on the processing

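With a 2-fold change in place of 1.2-fold the M1-M2 difference passed for 4401 genes with DA and 3750 without, its change for 953, the DA effect for 44 in M1 and 624 in M2, the change in DRD5-/- for 3 and the genotype difference for 1107. The classes then held 277 narrowed, 571 widened and 5 reversed genes, with 12 moved alike and 2 oppositely. At an adjusted p under 0.05 the change in DRD5-/- passed for 465 genes. The other alternatives left each of these counts within 1.5 times its value. Leaving out 1 library gave 8685 to 8840 genes for the M1-M2 difference with DA, 4527 to 4738 for its change, 180 to 189 reversed, 1489 to 1531 narrowed, 2774 to 2930 widened and 91 to 187 for the change in DRD5-/-. Of 610 values of named genes, 4 that passed the threshold turned sign after median-of-ratios scaling and 2 after quantile normalization, none of them past the threshold there; the cause was not tested. The M1-M2 difference with DA became 0.15 for Psat1 and 0.077 for Mvk after the former and 0.074 for Dio2 and 0.13 for Mvk after the latter, and the untreated difference 0.13 for Gpx1 and 0.081 for Hsph1 after the former. With a replicate block 4698 genes passed for the change and 189 were reversed. The deviations of same-numbered libraries from their group means correlated between -0.087 and 0.108 over 18 pairs (1 above 0.1), which gave no sign of pairing by number. They cannot tell if same-numbered libraries shared an animal or culture, since the spread may be technical. Unknown depth limits statements on genes near 1 FPKM.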

Other observations

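Other transcripts outside the comparisons also differed between libraries. Chil4, a chitinase-like gene listed for M2 only, had a mean of 6.12 FPKM in untreated and 0.47 in DA-treated M2 WT libraries. S100a9, a gene abundant in neutrophils and listed for M1 only, had a mean of 13.6 FPKM in untreated and 14.9 in DA-treated M1 WT libraries, with 9.65 to 21 FPKM among the latter, and 0.54 and 0.61 FPKM in DRD5-/-.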
